A study of Mus musculus with 16 samples.

Results

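The 10 immediate early transcription factor genes Fos, Fosb, Jun, Junb, Atf3, Egr1, Egr2, Egr3, Ier2 and Nr4a1 were followed in engrafted brain macrophages and host microglia of bone marrow (BM) chimeras. They were chosen by name, and all 10 had a row among the 24411 genes of the count table. RNA was sequenced from 16 libraries in 4 groups of 4, namely engrafted cells (CD451) and host microglia (CD452), each from unchallenged mice and from mice challenged with lipopolysaccharide (LPS), an endotoxin of bacterial cell walls. All mice were of the C57BL/6J strain and of WT genotype and had received 950 cGy of irradiation and a donor BM graft, so the host microglia of the control groups were irradiated cells too, and no group came from a nonirradiated brain. The study's text gives recipients 6 weeks old and a challenge 9 months after the transfer, whereas the labels allow 3.5 or 9 months and assign neither to a library. Mice 1 to 4 received 2.5 mg/kg LPS and were sacrificed 12 h later, and mice 5 to 8 were not injected, so an effect of the injection and one of LPS cannot be told apart. Both populations of a mouse were sorted from the same brain as Ly6C/G- CD11b+ cells with low CD45.1 (engrafted) or low CD45.2 (host), after digestion for 20 min at 37 °C, with 10000 cells per library.

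Immediate early genes are transcribed soon after a stimulus by factors that are already present in the cell, such as SRF and CREB, and their mRNAs are short-lived. FOS and JUN family proteins pair through leucine zippers to form the AP-1 complex, and ATF3 belongs to the same bZIP class. EGR proteins are zinc finger factors that bind GC-rich sites, and Nr4a1 encodes an orphan nuclear receptor without a known natural ligand. In macrophages these factors take part in the response to inflammatory signals, and their genes are also known to be switched on while tissue is digested to release cells.

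The promoters are shown because the members differed in their response to LPS. The 250 bases before the start of the deposited transcript model were read from NCBI37 (mm9) and are printed from 5′ to 3′ on the strand of the gene, for 5 members. These are Nr4a1, Egr2, Atf3 and Fosb, which were called in a main comparison below, and Jun for the JUN family. Egr3, too low for most tests, is not shown. Capitals mark 4 motifs, read on both strands, namely TGACG (the core of a CREB or ATF site), TGACATCA (a variant AP-1 site), the CArG box (bound by SRF) and GCGGGGGCG (bound by EGR factors).
Nr4a1, chr15:101097027-101097276, plus strand: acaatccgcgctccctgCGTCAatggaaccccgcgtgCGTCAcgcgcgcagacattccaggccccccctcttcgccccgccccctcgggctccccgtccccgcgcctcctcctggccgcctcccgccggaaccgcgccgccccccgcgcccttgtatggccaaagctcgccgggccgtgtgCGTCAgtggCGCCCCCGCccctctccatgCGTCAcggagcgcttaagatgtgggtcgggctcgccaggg
Egr2, chr10:67000367-67000616, plus strand: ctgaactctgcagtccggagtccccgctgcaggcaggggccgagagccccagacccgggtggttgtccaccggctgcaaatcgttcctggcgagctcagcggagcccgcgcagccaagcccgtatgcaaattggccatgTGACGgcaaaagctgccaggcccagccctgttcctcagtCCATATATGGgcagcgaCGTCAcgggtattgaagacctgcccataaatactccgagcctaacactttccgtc
Atf3, chr1:193007213-193007462, minus strand: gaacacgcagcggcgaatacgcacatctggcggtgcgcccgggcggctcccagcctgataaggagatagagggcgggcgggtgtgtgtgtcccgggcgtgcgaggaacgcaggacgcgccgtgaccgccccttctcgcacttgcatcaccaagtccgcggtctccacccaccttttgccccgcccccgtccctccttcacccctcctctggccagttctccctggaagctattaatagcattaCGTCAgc
Fosb, chr7:19895395-19895644, minus strand: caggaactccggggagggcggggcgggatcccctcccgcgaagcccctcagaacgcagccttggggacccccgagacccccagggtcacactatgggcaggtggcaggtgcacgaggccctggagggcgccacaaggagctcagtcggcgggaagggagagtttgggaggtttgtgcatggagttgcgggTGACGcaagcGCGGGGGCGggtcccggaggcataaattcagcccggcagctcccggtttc
Jun, chr4:94718914-94719163, minus strand: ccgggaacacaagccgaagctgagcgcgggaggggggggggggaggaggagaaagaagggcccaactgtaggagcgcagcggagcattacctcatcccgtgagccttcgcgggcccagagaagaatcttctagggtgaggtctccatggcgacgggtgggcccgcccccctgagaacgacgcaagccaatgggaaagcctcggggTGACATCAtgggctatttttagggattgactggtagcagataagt
TGACG, or its complement CGTCA, was found in 7 of the 9 members searched and in 20.2% of 24201 promoters of the same length. The Nr4a1 window held it at 4 places and that of Egr2 at 2. Its full palindrome TGACGTCA, which contains it, was found in Ier2 and in 2.01% of all promoters, and TGACATCA in Jun and in 2.35%. The CArG box was found in Egr2 and in 1.31% of all promoters, and GCGGGGGCG in Fosb and Nr4a1 and in 3.51%. The AP-1 site TGANTCA, with any base at N, was found in 0 of the 9 members and in 6.17% of all promoters. The Egr1 promoter was not searched. A match describes the letters of this window and not a bound site.

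Each library held 395283 to 1203597 reads on genes, with a median of 820587.5, and the 10 members took 0.761 to 1.65% of them. Levels are given in CPM (counts scaled to a common library size with TMM factors) over the 16 libraries, and a count of 3 reads, the most that a count of 0 allows, corresponded to 2.34 to 8.76 CPM. The summed level of 9 microglia markers was 24700 to 27650 CPM in unchallenged and 11820 to 12940 CPM in LPS-treated host cells, against 15800 to 17920 and 5487 to 7282 CPM in engrafted cells. The summed level of 7 markers of brain border macrophages was 997 to 1581 CPM in engrafted and 26.2 to 41.4 CPM in host libraries. The 6 monocyte markers summed to 957 to 1976 CPM in engrafted cells after LPS, 166 to 291 CPM in engrafted controls and at most 23.2 CPM in host cells, where 4 of 6 were at or under 3 reads in every library of a group. The 7 neutrophil markers summed to 274 to 1269 CPM in engrafted controls, 48.2 to 497 CPM in engrafted cells after LPS and at most 14.7 CPM in host cells. Red blood cell markers spread from 2.56 to 6879 CPM over the libraries. The library of engrafted cells from LPS mouse 4 stood apart. It had the lowest depth (395283 reads) and the highest level of red blood cell markers (6879 CPM, against 2.56 to 79.5 CPM in the other 3 of its group), and the members took 1.49% of its reads against 0.811 to 0.981%. Its T and NK cell markers were also above the others (26.3 CPM against 2.41 to 5.50 CPM), and its monocyte markers below them (957 CPM against 1402 to 1976 CPM). Where leaving it out changed a call of a member tested with all libraries, the value without it is given too. It is also given for other called values of Fosb, Atf3 and Egr2. The part of these markers and of depth in the results was not tested, and in sorted populations fewer cells of a type and less RNA per cell cannot be told apart.

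**Figure D1:**
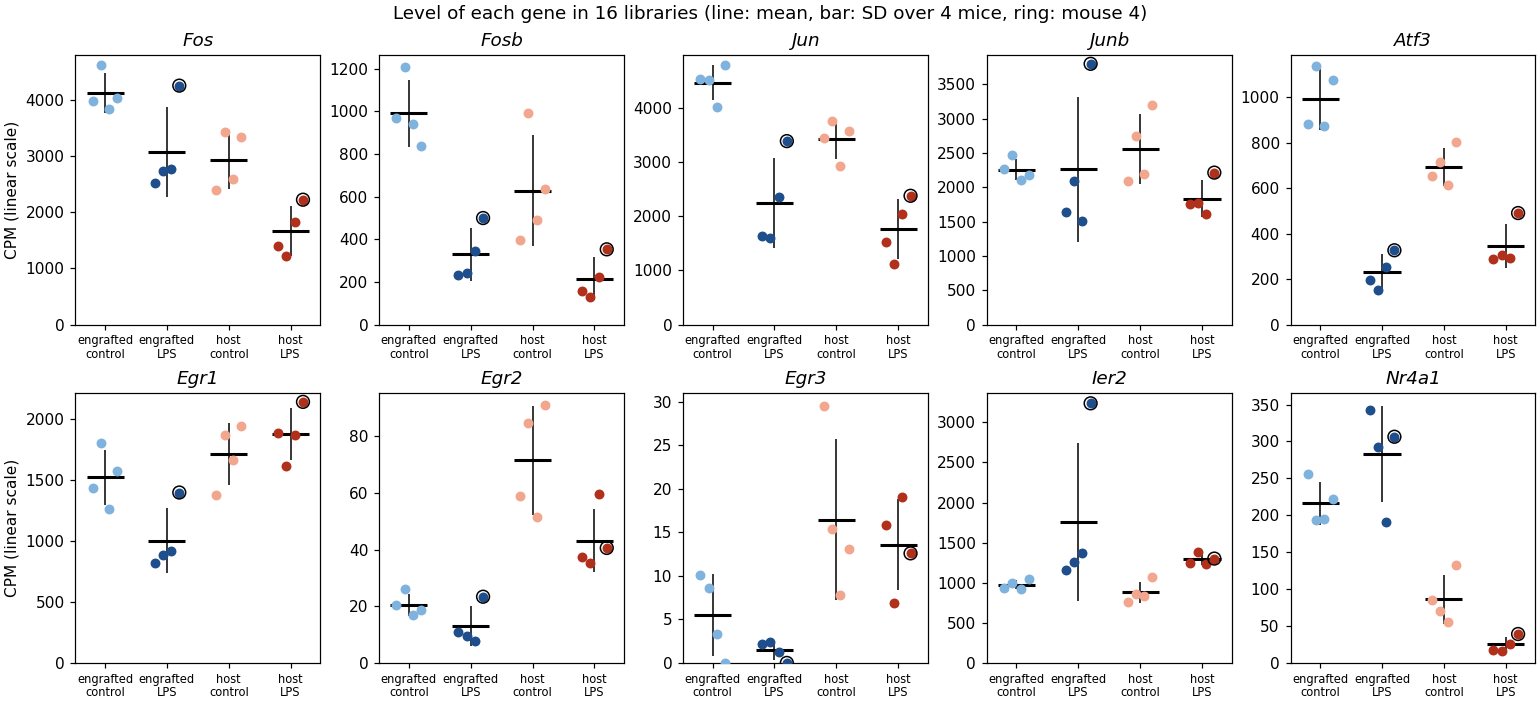
Level of each member in the 16 libraries, in CPM on a linear axis that starts at 0. Points are libraries, lines the mean and bars the SD of 4 mice, and rings mark both libraries of LPS mouse 4. Nr4a1 was higher and Egr2 lower in all engrafted than in all host libraries of the same condition.

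In unchallenged mice, engrafted cells had more Nr4a1, Fos, Fosb, Jun and Atf3 mRNA and less Egr2 mRNA than host microglia. A gene passed the test at a Benjamini-Hochberg adjusted p below 0.05 in edgeR's quasi-likelihood test, with adjustment over all tested genes, and was called where it also differed by more than 2-fold. Of 9 members tested, 2 were called, against a background of 11.0% of 8042 genes. These were Nr4a1, higher (6.25% of all genes), and Egr2, lower (4.73%). By adjusted p alone, 5 members were higher (13.6% of all genes) and 1 was lower (13.7%), 27.3% of all genes in either direction, and the libraries of the groups did not overlap for 5 of the 10 members, against 26.4%. The median log2 fold change of the members tested was 0.40, against 0.02 for all genes.

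After LPS, engrafted cells again had more Nr4a1 and Fos and less Egr2 mRNA than host microglia of the same brains, and now also less Egr1. Of 9 members tested, 2 were called, against a background of 11.1% of 7843 genes, again Nr4a1 on the higher (6.73%) and Egr2 on the lower side (4.34%). Egr2 passed the low-count filter there through host reads, with at most 10 reads in an engrafted library. By adjusted p alone, 2 were higher (9.52%) and 2 lower (7.62%), 17.1% of all genes in either direction, and 5 of the 10 members did not overlap (20.7%). The median of the members was 0.36 and that of all genes -0.01. Over all genes, 528 were called higher and 340 lower, and with library totals in place of TMM 448 and 471, a scaling that moved the median of all genes to -0.16. Without engrafted LPS mouse 4, 4 members were called, with Egr1 added on the lower side and Egr3, which was then tested. Egr3 was also called lower in the 6 other settings that tested it, namely without engrafted LPS mouse 1, 2 or 3, without host LPS mouse 2, with no filter on low counts and in 1 fit of all 16 libraries. These settings share libraries, and the engrafted LPS libraries had at most 2 Egr3 reads. Where a filter was used, Egr3 passed it only through host reads, so these calls are no separate support. Without host LPS mouse 4, Fos was called higher.

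Fosb, Jun and Atf3 were lower after LPS in both populations, and Ier2 was higher in both. In engrafted cells, 2 of 9 members tested were called (background 21.5% of 7609 genes). Fosb and Atf3 were both lower (11.3%), and none was called higher (10.2%). By adjusted p alone, 4 were lower (19.3%) and 1 was higher (19.4%), 38.7% in either direction, and 4 members did not overlap (35.1%), with a median of -0.61 against -0.01 for all genes. Without engrafted LPS mouse 4, 4 were called, all lower, with Jun and Egr2 added. In host microglia, 3 of 10 were called (background 18.0% of 8238 genes). Fosb, Atf3 and Nr4a1 were all lower (10.4%), and none was called higher (7.66%). By adjusted p alone, 7 were lower (20.5%) and 1 was higher (19.2%), 39.7% in either direction, and 6 did not overlap (35.7%), with a median of -0.79 against 0.01. The test of the difference between the responses called 2 of 10 members (background 4.95% of 8847 genes), Nr4a1 on the higher (2.45%) and Atf3 on the lower side (2.50%). The same 2 passed by adjusted p alone (5.88% of genes in either direction, 2.97% higher and 2.90% lower).

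**Figure D2:**
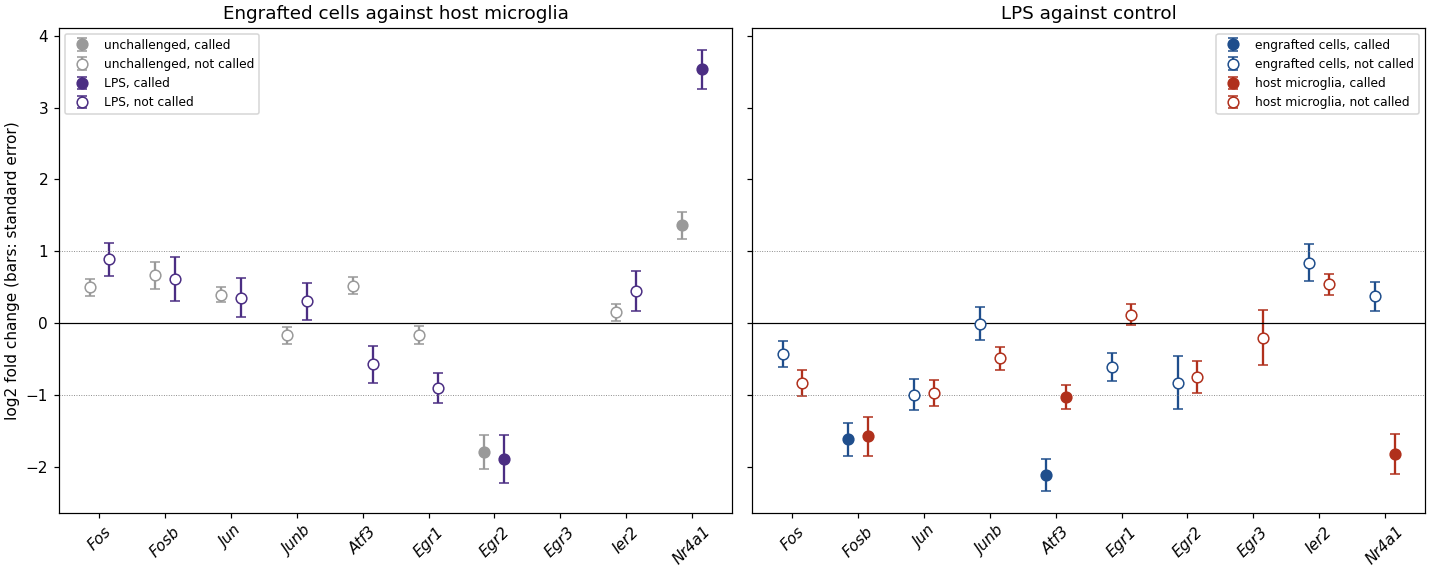
Log2 fold change of each member with its standard error, for engrafted cells against host microglia (left) and LPS against control (right). Filled points were called, open points were not, dotted lines mark 2-fold, and Egr3 is missing where it had too few reads for the test. The Nr4a1 difference between populations was 1.36 without and 3.53 with LPS.

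Fos and Fosb encode partners of JUN proteins in AP-1. In unchallenged mice 5 to 8, Fos stood at 3971, 4625, 3828 and 4031 CPM in engrafted cells and at 2388, 3424, 2588 and 3330 CPM in host microglia. In LPS mice 1 to 4 it stood at 2525, 2730, 2765 and 4249 CPM in engrafted and at 1395, 1216, 1827 and 2220 CPM in host cells. All engrafted libraries lay above all host libraries in both conditions, and mouse 4 was the highest of its group in both populations. The log2 difference between populations was 0.50 (SE 0.12, edgeR adjusted p = 0.0016) without and 0.89 (SE 0.23, edgeR adjusted p = 0.0107) with LPS. The latter was 0.71 without engrafted LPS mouse 4 (edgeR adjusted p = 0.0161) and 1.06 without host LPS mouse 4 (edgeR adjusted p = 0.0051). LPS lowered Fos in host microglia by 0.83 on the log2 scale (edgeR adjusted p = 0.000688). In engrafted cells the log2 fold change was -0.43 (edgeR adjusted p = 0.0733), with mouse 4 inside the control range, and -0.61 (edgeR adjusted p = 0.000746) without that library.

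Fosb stood at 970, 1209, 942 and 838 CPM in engrafted controls and at 397, 992, 489 and 635 CPM in host controls. The LPS libraries held 230, 240, 344 and 499 CPM in engrafted and at 155, 128, 224 and 352 CPM in host cells. Every LPS library lay below every control library of its population, and the engrafted library was above the host library in all 8 mice. Fosb fell by 1.61 on the log2 scale in engrafted cells (SE 0.23, edgeR adjusted p = 1.54e-05) and by 1.57 in host microglia (SE 0.27, edgeR adjusted p = 6.24e-05). Without engrafted LPS mouse 4 the log2 fold change in engrafted cells was -1.85 (edgeR adjusted p = 1.38e-08). The engrafted level was higher without LPS (log2 0.67, edgeR adjusted p = 0.008, and 0.099 by DESeq2). After LPS the difference of 0.61 did not pass (edgeR adjusted p = 0.206), and with the mouse as a block it was 0.66 (edgeR adjusted p = 0.0107). It was 0.37 without engrafted LPS mouse 4 (edgeR adjusted p = 0.394) and 0.95 without host LPS mouse 4 (edgeR adjusted p = 0.0337).

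Jun and Junb encode the partners of FOS proteins in AP-1, and JUNB is known to be the weaker activator. Jun stood at 4550, 4532, 4021 and 4804 CPM in engrafted controls and at 3443, 3764, 2932 and 3572 CPM in host controls. In LPS mice the level was 1645, 1610, 2362 and 3394 CPM in engrafted and at 1524, 1128, 2040 and 2382 CPM in host cells. All LPS libraries were below the controls of their population, with mouse 4 highest in both. Jun fell by 1.00 on the log2 scale in engrafted cells (SE 0.21, edgeR adjusted p = 0.00102), just inside the 2-fold limit, and by 0.97 in host microglia (SE 0.18, edgeR adjusted p = 0.000196). It was called lower under 6 of 9 other settings in engrafted cells and under 3 of 9 in host microglia, in both with adjusted p alone, with limma-trend and without mouse 4. Of 8 single libraries left out in each population, 3 brought the call. The values went down to -1.24 without engrafted LPS mouse 4 and to -1.14 without host LPS mouse 4. Unchallenged engrafted cells had more Jun than host microglia (log2 0.40, edgeR adjusted p = 0.0044). After LPS the difference was 0.36 and did not pass (edgeR adjusted p = 0.424), and it was 0.11 without engrafted LPS mouse 4 and 0.19 without host LPS mouse 2.

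Junb stood at 2273, 2466, 2105 and 2181 CPM in engrafted controls and at 2087, 2746, 2197 and 3193 CPM in host controls. With LPS, Junb was at 1639, 2099, 1510 and 3800 CPM in engrafted and at 1750, 1777, 1605 and 2214 CPM in host cells. Mouse 4 was above all engrafted controls, while the other 3 engrafted LPS libraries were below them. Junb fell by 0.49 on the log2 scale in host microglia (SE 0.16, edgeR adjusted p = 0.0164), where the groups overlapped, and the adjusted p rose to 0.0531 to 0.072 without any of host control mice 6 and 8 or host LPS mice 1 and 3. In engrafted cells the log2 fold change was -0.01 (SE 0.23, edgeR adjusted p = 0.989), and without mouse 4 it was -0.35 (edgeR adjusted p = 0.0492). The populations did not differ past the test in either condition.

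Atf3, a stress-induced bZIP factor that represses inflammatory genes in macrophages, changed order between the populations. It stood at 882, 1138, 873 and 1075 CPM in engrafted controls and at 652, 714, 612 and 804 CPM in host controls. With LPS, Atf3 was at 198, 151, 255 and 327 CPM in engrafted and at 290, 306, 293 and 491 CPM in host cells. The engrafted library was above the host library in 4 of 4 control mice and below it in 4 of 4 LPS mice, although the LPS groups overlapped through engrafted mouse 4. Atf3 fell by 2.11 on the log2 scale in engrafted cells (SE 0.22, edgeR adjusted p = 3.39e-07) and by 1.03 in host microglia (SE 0.17, edgeR adjusted p = 4.55e-05). Without engrafted LPS mouse 4 the log2 fold change in engrafted cells was -2.28 (edgeR adjusted p = 7.46e-10). The responses differed by -1.10 (engrafted minus host, log2, SE 0.29, edgeR adjusted p = 0.0212). That call was lost, with differences of -1.04 to -0.87 and adjusted p of 0.054 to 0.0647, without engrafted control mouse 6, engrafted LPS mouse 1 or 2, host control mouse 7 or host LPS mouse 4. It was kept without engrafted LPS mouse 4 (-1.29, edgeR adjusted p = 0.00192). In the direct comparison, Atf3 was higher in engrafted cells without LPS (log2 0.52, edgeR adjusted p = 0.00185). With LPS the difference was -0.57 and did not pass (edgeR adjusted p = 0.144), and it passed with the mouse as a block (-0.58, edgeR adjusted p = 0.0333) and without engrafted LPS mouse 4 (-0.75, edgeR adjusted p = 0.0233).

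Egr1, an EGR factor that drives macrophage differentiation genes, differed between the populations after LPS. It stood at 1436, 1803, 1261 and 1572 CPM in engrafted controls and at 1373, 1868, 1660 and 1939 CPM in host controls, with overlapping ranges. After LPS it stood at 814, 886, 913 and 1395 CPM in engrafted and at 1886, 1611, 1866 and 2137 CPM in host cells, and the ranges no longer overlapped. The log2 difference between engrafted and host cells was -0.16 (SE 0.12, edgeR adjusted p = 0.372) without and -0.90 (SE 0.21, edgeR adjusted p = 0.00464) with LPS, or -1.08 (edgeR adjusted p = 0.00014) without engrafted LPS mouse 4. LPS lowered Egr1 in engrafted cells by 0.61 on the log2 scale (SE 0.20, edgeR adjusted p = 0.0193), and the adjusted p was 0.0535 to 0.0895 without engrafted control mouse 6 or engrafted LPS mouse 1, 2 or 3. Without engrafted LPS mouse 4 the change was -0.78 (edgeR adjusted p = 0.000146). In host microglia the log2 fold change was 0.12 (SE 0.15, edgeR adjusted p = 0.545). The difference between the responses was -0.74 (SE 0.24) and did not pass (edgeR adjusted p = 0.0737). It was -0.76 with the mouse as a block (edgeR adjusted p = 0.0191) and -0.93 without engrafted LPS mouse 4 (edgeR adjusted p = 0.00507).

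Egr2, which is also the regulator of myelin genes in Schwann cells, was lower in engrafted than in host cells of every mouse. It stood at 20.3, 26.0, 16.8 and 18.5 CPM in engrafted controls and at 59.0, 84.7, 51.4 and 90.9 CPM in host controls. With LPS, Egr2 was at 11.0, 9.63, 7.68 and 23.4 CPM in engrafted cells, from 6 to 10 reads per library, and at 37.4, 35.2, 59.5 and 40.6 CPM in host cells. The ranges of the populations did not overlap in either condition. The log2 difference was -1.79 (SE 0.24, edgeR adjusted p = 2e-06) without and -1.89 (SE 0.33, edgeR adjusted p = 0.000438) with LPS. The latter was -2.13 without engrafted LPS mouse 4. After LPS, Egr2 passed the low-count filter through host reads, so the size of that difference is uncertain. Egr2 fell by 0.74 on the log2 scale after LPS in host microglia (SE 0.22, edgeR adjusted p = 0.0111). In engrafted cells the log2 fold change was -0.83 (SE 0.37, edgeR adjusted p = 0.0807), and without mouse 4 it was -1.07 (edgeR adjusted p = 0.0241).

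Egr3 was near the limit of detection in engrafted cells. It had 10, 5, 2 and 0 reads in engrafted controls (10.1, 8.66, 3.35 and 0 CPM) and 2, 2, 1 and 0 reads in engrafted cells after LPS (2.20, 2.41, 1.28 and 0 CPM). Host microglia had 20, 16, 10 and 13 reads without LPS (29.5, 15.4, 7.79 and 13.1 CPM) and 14, 7, 16 and 9 reads with it (15.9, 6.84, 19.0 and 12.6 CPM). It was too low for the test across genes except within host microglia, where LPS gave -0.20 (SE 0.39, edgeR adjusted p = 0.719), and for the difference between the responses. After LPS, engrafted cells were at least 2.79-fold lower than host microglia, taking 3 reads in each engrafted library as the limit, and no library overlapped (two-sided exact permutation p = 0.0286, the smallest that 4 against 4 libraries allow). Without LPS the exact permutation p was 0.0857.

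Ier2, a nuclear protein induced by growth factors, was the member that rose after LPS in both populations. It stood at 935, 996, 922 and 1042 CPM in engrafted controls and at 760, 855, 838 and 1071 CPM in host controls. In LPS mice, Ier2 was at 1161, 1258, 1374 and 3237 CPM in engrafted and at 1243, 1389, 1233 and 1301 CPM in host cells. All LPS libraries were above the controls of their population. Ier2 rose by 0.84 on the log2 scale in engrafted cells (SE 0.26, edgeR adjusted p = 0.0144) and by 0.54 in host microglia (SE 0.14, edgeR adjusted p = 0.00425). Without engrafted LPS mouse 4 the rise in engrafted cells was 0.39 (SE 0.13, edgeR adjusted p = 0.0208), and without mouse 1 it was 1.01 and called. The populations did not differ past the test in either condition, at 0.16 without (edgeR adjusted p = 0.365) and 0.45 with LPS (edgeR adjusted p = 0.307). The latter was -0.0044 without engrafted LPS mouse 4.

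Nr4a1 differed most between the populations after LPS among the members tested, and Egr2 without it. It stood at 255, 194, 194 and 222 CPM in engrafted controls and at 85.6, 70.2, 56.1 and 132 CPM in host controls. In LPS mice, Nr4a1 was at 343, 293, 191 and 306 CPM in engrafted and at 18.1, 16.6, 26.2 and 39.2 CPM in host cells. The host level after LPS was below that of every host control, and every engrafted library was above every host library. Engrafted cells had 2.57-fold more without LPS (log2 1.36, SE 0.19, edgeR adjusted p = 3.21e-06) and 11.6-fold more with LPS (log2 3.53, SE 0.27, edgeR adjusted p = 3.66e-08). Nr4a1 fell by 1.82 on the log2 scale after LPS in host microglia (SE 0.28, edgeR adjusted p = 2.17e-05). In engrafted cells the log2 fold change was 0.37 (SE 0.20, edgeR adjusted p = 0.14), and without mouse 3, the lowest library, it was 0.53 (edgeR adjusted p = 0.0342). The responses differed by 2.18 (engrafted minus host, log2, SE 0.36, edgeR adjusted p = 0.000251). Leaving out any single library gave differences of 1.89 to 2.47.

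**Figure D3:**
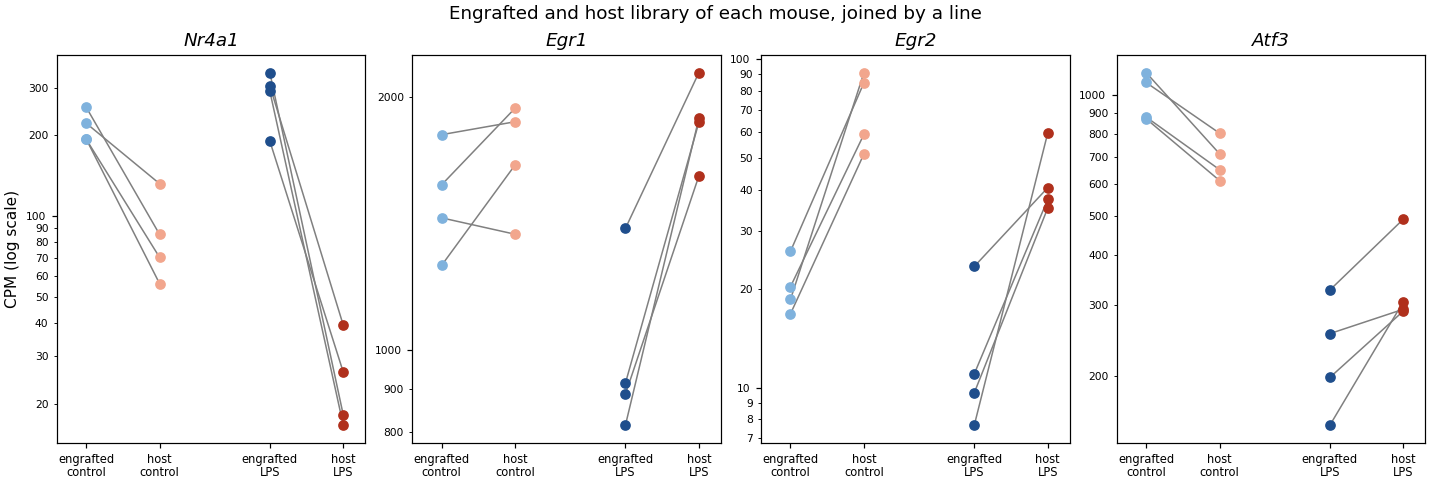
Nr4a1, Egr1, Egr2 and Atf3 in both populations of each mouse, in CPM on a log axis, with a line joining the engrafted and the host library of 1 mouse. The Atf3 lines fall from engrafted to host in the 4 control mice and rise in the 4 LPS mice, and the Egr1 lines rise in all 4 LPS mice.

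Since both populations of a mouse went through the same digestion and sort, the members were also compared within mice. Engrafted cells had the higher level of Fos, Fosb, Jun and Nr4a1 in 8 of 8 mice and the lower level of Egr2 and Egr3 in 8 of 8. Nr4a1 was 0.75 to 1.79 higher on the log2 scale in control mice and 2.84 to 4.20 higher in LPS mice, and these ranges did not overlap. Egr1 differed by -0.40 to 0.06 in control mice and by -1.21 to -0.61 in LPS mice, again without overlap. For Atf3 the ranges were 0.42 to 0.67 and -1.02 to -0.20. Fos (0.28 to 0.73 and 0.60 to 1.17), Fosb (0.29 to 1.29 and 0.50 to 0.90) and Jun (0.27 to 0.46 and 0.11 to 0.51) kept overlapping ranges. Junb and Ier2 had no common order, with engrafted cells higher in 1 and 3 of 4 control mice and in 2 of 4 LPS mice each.

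After removal of the group means, the members tended to deviate together from library to library. The mean pairwise Pearson r was 0.50 over 16 libraries for the 10 members and 0.64 for the 8 without Egr2 and Egr3, against 0.0004 for all 8847 genes, and without engrafted LPS mouse 4 it was 0.39 and 0.50. The points share library, depth and mouse. The value for all genes takes in low and high levels alike, and no set of genes matched to the members in level was compared. Mouse 4 had the highest level of 8 of 10 members among engrafted and of 7 of 10 among host LPS libraries. The share of all genes that were highest in mouse 4 was not computed, so these counts have no background. Between both populations of a mouse, the deviations of Jun had a Pearson r of 0.91 over 8 mice (exact permutation p = 0.0608) and a Spearman rho of 0.90 (p = 0.0521), and r was 0.81 without the mice 2 and 4 that lay farthest from the median. Those of Fosb had r = 0.83 (exact permutation p = 0.026) and rho = 0.79 (p = 0.0903), and r = 0.74 without mice 1 and 4. Those of Fos had r = 0.76 (exact permutation p = 0.0399) and rho = 0.79 (p = 0.0243), and r = 0.36 without mice 4 and 6, so this relation rested on these mice. Of the 10 relations computed, none passed after Benjamini-Hochberg adjustment (lowest adjusted p 0.152 by the exact permutation test of r). For Egr2 and Nr4a1 r was -0.06 and 0.04.

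**Figure D4:**
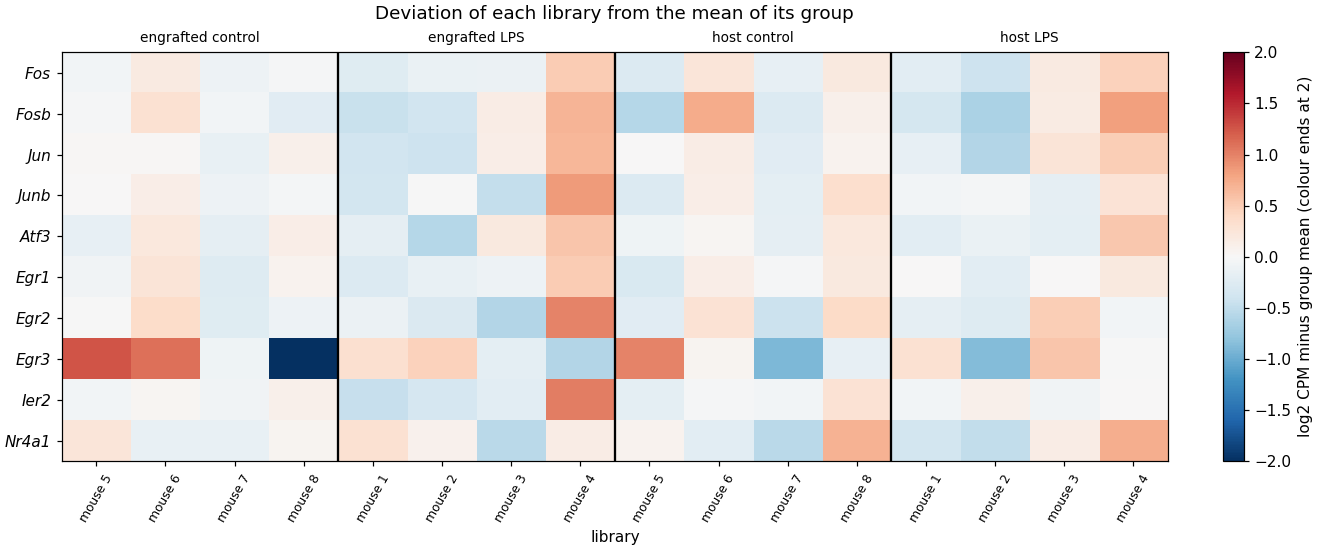
Deviation of each library from the mean of its group, in log2 CPM, for the 10 members (rows) and 16 libraries (columns, by group and mouse). Red is above and blue below the group mean, and mouse 4 has the highest value for 8 of 10 members in engrafted LPS and for 7 of 10 in host LPS. The share of all genes highest in mouse 4 was not computed.

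The genes whose levels over the 16 libraries were most like the mean profile of the members, among 8837 other genes, were Rhob, Zfp467, Usp48, Igsf8 and Cebpa, with Pearson r of 0.93, 0.92, 0.92, 0.91 and 0.91. With group means removed, the 4 most alike were Fam98c (0.91), Bad (0.89), Cyb561a3 (0.89) and Dnajb1 (0.88), a heat shock cochaperone.

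Other genes of the AP-1 and bZIP class moved both ways after LPS. Of 14 tested in engrafted cells, 3 were called higher and 2 lower (10.2% and 11.3% of all genes), with a median of 0.05. Of 15 in host microglia, 3 were higher and 2 lower (7.66% and 10.4% of all genes), with a median of 0.25, against -0.01 and 0.01 for all genes. Fosl2, a FOS-related partner, rose by 1.79 in engrafted cells (edgeR adjusted p = 0.000114) and by 2.51 in host microglia (edgeR adjusted p = 5.76e-07) on the log2 scale. Host control libraries had at most 9 Fosl2 reads, so the size in host microglia is uncertain. Batf, which pairs with JUN proteins, rose by 1.76 and 1.44, and Jdp2, a repressor of AP-1, by 1.47 and 1.13. Batf3 fell by 2.05 and 1.44, and Maf, a large MAF factor, by 1.57 and 1.35. Between the populations, 1 of 13 was called without and 2 of 15 with LPS, all higher in engrafted cells (6.25% and 6.73% of all genes), among them Batf after LPS (1.22). Batf2 stood at 29.7 to 53.6 CPM in engrafted and 9.62 to 13.3 CPM in host controls (log2 1.83, edgeR adjusted p = 1.29e-05). After LPS it stood at 37.1 to 81.7 and 2.93 to 12.6 CPM (log2 3.15, edgeR adjusted p = 6.87e-06). Host libraries had at most 15 Batf2 reads without and 9 with LPS. It thus passed the low-count filter through engrafted cells, and its sizes are uncertain.

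Among the genes tested from a list of 18 other immediate early factors, Nfil3, a bZIP repressor, had the largest log2 fold change after LPS. It went from 5.03 to 15.2 CPM in engrafted controls to 107 to 199 CPM after LPS (log2 4.06, edgeR adjusted p = 5.93e-09) and from 0 to 10.6 CPM to 79.7 to 134 CPM in host microglia (log2 4.16, edgeR adjusted p = 4.84e-09). The Id1 and Id2 genes, inhibitors of helix-loop-helix factors, rose by 1.88 and 1.60 in engrafted cells and by 2.58 and 2.21 in host microglia. In control libraries, Nfil3 had at most 15 reads in engrafted and 11 in host cells, and Id1 at most 9 and 6. Nfil3 and Id1 thus passed the low-count filter through LPS libraries, and their sizes are uncertain. Klf4 was called lower in engrafted cells (-1.03, edgeR adjusted p = 0.000641) and stood at -0.02 in host microglia, and Ier5 was called lower in host microglia (-1.03, edgeR adjusted p = 1.3e-05) and stood at -0.59 in engrafted cells. The difference between the responses did not pass for Klf4 (-1.025, edgeR adjusted p = 0.0894) or Ier5 (0.42, edgeR adjusted p = 0.557). In all, 4 of 13 tested were called higher and 1 lower in engrafted cells (10.2% and 11.3% of all genes), and 3 of 11 higher and 1 lower in host microglia (7.66% and 10.4%), with medians of 0.45 and 0.13. Klf6 (log2 1.04) and Ier5l (1.03) were called higher in unchallenged engrafted cells among 10 tested (6.25% of all genes), and Bhlhe40 (2.59) and Klf2 (1.44) after LPS among 14 (6.73%). Ier5l stood at 12.1 to 23.3 CPM in engrafted and 6.06 to 17.7 CPM in host controls, with overlapping ranges. With at most 12 reads in a host control library, its size is uncertain. Bhlhe40 had at most 3 reads in a host LPS library and 14.1 to 20.9 CPM in engrafted LPS libraries. It thus passed the low-count filter only through engrafted cells, and its size is uncertain. Klf2 stood at 449 to 2218 CPM in engrafted (SD 837) and 279.5 to 526 CPM in host cells after LPS, with overlapping ranges. Dependence of these calls on single libraries was not tested. Csrnp1 was called for the difference between the responses (1.18, edgeR adjusted p = 0.0265).

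Feedback regulators and RNA decay factors moved both ways after LPS. Of 17 tested, 6 were called higher and 4 lower in engrafted cells (10.2% and 11.3% of all genes), and of 19 tested 4 higher and 3 lower in host microglia (7.66% and 10.4%), with medians of -0.03 and 0.08. Dusp2, a phosphatase of MAP kinases, stood at 26.4 to 43.3 CPM in engrafted controls and 331 to 861 CPM after LPS (log2 4.12, edgeR adjusted p = 3.17e-09), and at 75.1 to 104 CPM and 150 to 740 CPM in host microglia (log2 2.31, edgeR adjusted p = 2.48e-05). The Dusp2 responses differed by 1.81 (edgeR adjusted p = 0.0487). Dusp6, a phosphatase of ERK, stood at 399 to 454 CPM in engrafted and 165 to 221 CPM in host controls, and at 93.9 to 205 and 137 to 239 CPM after LPS, and its responses differed by -1.52 (edgeR adjusted p = 0.00121). Gadd45b rose by 2.14 and 2.17 in engrafted and host cells, and Rgs2, a regulator of G protein signalling, fell by 1.94 and 1.73. Trib1 rose by 1.47 and 1.35, and Ier3 by 1.45 and 1.61. Btg1 was called lower in engrafted cells (-1.09, and -0.27 in host microglia), Ppp1r15a in host microglia (-1.03, and -0.48 in engrafted cells) and Spry1, which was not tested in engrafted cells, in host microglia (-1.18). Responses did not differ past the test for Btg1 (-0.83, edgeR adjusted p = 0.342) or Ppp1r15a (0.53, edgeR adjusted p = 0.268). Btg1 spread from 75.9 to 531 CPM in engrafted LPS libraries, and dependence of its call on single libraries was not tested. Between the populations, 2 of 19 were called higher and 2 lower without LPS (6.25% and 4.73% of all genes), and 1 of 18 higher with it (6.73%). Rgs1 was higher in engrafted cells by 1.50 without and 1.23 with LPS. Without LPS, Dusp6 was 1.16 higher and Dusp2 and Gadd45a were lower (-1.35 and -1.71). The responses of Gadd45a differed by 2.40 (edgeR adjusted p = 0.00919). Gadd45a had at most 8 reads in an engrafted control library (1.68 to 8.11 CPM), and its LPS response within engrafted cells was not tested. The sizes that involve this group are therefore uncertain.

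Several heat shock genes were higher in unchallenged engrafted cells and lower after LPS. Of 12 tested, 4 were called higher in unchallenged engrafted cells (6.25% of all genes, median 0.70), 8 were called lower after LPS in engrafted cells (11.3%, median -1.61) and 4 in host microglia (10.4%, median -0.27). In host microglia Hspd1 (0.87, edgeR adjusted p = 0.00649) and Hsp90ab1 (0.43, edgeR adjusted p = 0.0254) passed the test as higher after LPS, under the 2-fold limit. Hspa1b, an inducible chaperone of the HSP70 family, stood at 845 to 1887 CPM in engrafted controls and at 251 to 335 CPM in host controls, and at 38.4 to 365 and 15.9 to 26.4 CPM after LPS. It fell by 3.23 on the log2 scale in engrafted cells (edgeR adjusted p = 2.32e-05) and by 3.74 in host microglia (edgeR adjusted p = 1.91e-12). Its neighbour and near-identical copy Hspa1a, whose reads may be split with it, fell by 2.66 and 2.39. Hsph1 was 1.75 higher in unchallenged engrafted cells, and after LPS Hspb1 fell by 2.51 in engrafted and 1.22 in host cells and Dnajb1 by 2.41 and 1.89. For the difference between the responses, 4 were called, all on the lower side for engrafted cells (2.50% of all genes), among them Hsph1 (-2.11), Hsp90aa1 (-1.46) and Hsp90ab1 (-1.17). After LPS, Hspa1b (2.54) and Hspa1a (1.65) were higher in engrafted cells (6.73% of all genes), and the median was -0.29. Hspa1a stood there at 129 to 1048 CPM in engrafted and 83.8 to 231 CPM in host cells, with overlapping ranges. Among engrafted LPS libraries the SD was near the mean for Hspa1a (425 and 430 CPM) and Hspa1b (152 and 144 CPM). Dependence of these 2 calls on single libraries was not tested. The part of heat shock gene levels in the results for the members was not tested.

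**Figure D5:**
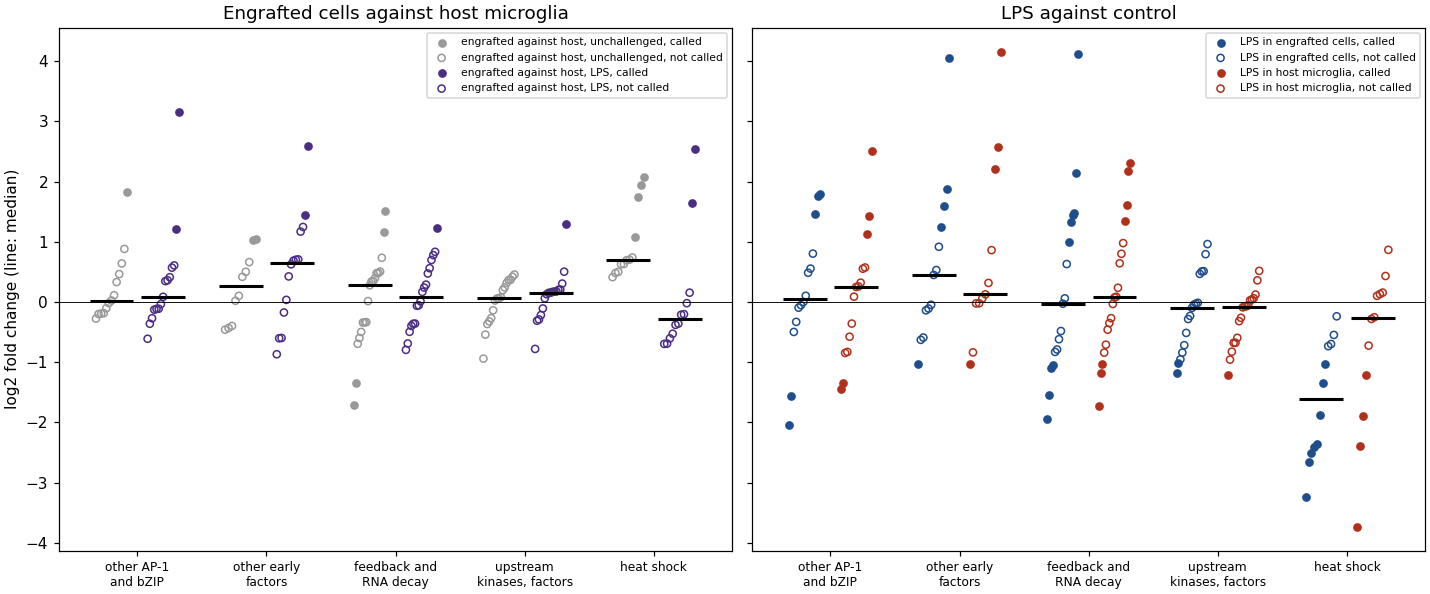
Log2 fold changes of the genes of 5 related lists, for engrafted cells against host microglia (left) and LPS against control (right). Filled points were called, open points were not, and lines are medians. The heat shock genes have the lowest median after LPS in engrafted cells, at -1.61.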

How the data were processed

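RNA of 16 sorted populations was measured with a derivation of MARS-seq, which captures polyadenylated RNA by oligo(dT). The deposited values are raw counts of reads that the authors made for the exons of each RefSeq gene in mm9, with 1 transcript model a gene and no normalization. Per the labels, HISAT 0.1.5 and HOMER were used, and the removal of duplicate molecules is not given in the sources used here, so limits cover counting error only. Groups were taken from the labels, whose numbers name the mouse. The p-values measure the spread between the 4 mice of a group.

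Tests were run on counts with edgeR 4.0.16 in R 4.3.3 (filterByExpr, minimum count 10, minimum total 15, TMM, quasi-likelihood tests, Benjamini-Hochberg adjustment over all genes tested). The 2 groups compared entered each fit, and all 4 the test of the difference between responses. Standard errors are the log2 fold change over the root of F. The script was tested on simulated data. DESeq2 1.42.0 and limma 3.58.1 were alternatives. Replicate libraries differed by 2.00 to 8.47 times counting noise (chi-square per degree of freedom, 24 pairs), so none was counted as a copy. Both libraries of a number come from 1 mouse, which pairs them. After removal of group means their r over all genes was -0.04 to 0.18.

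The members and the 5 lists of related genes, 11 marker lists and 6 motifs were chosen with earlier results of these data known. TGACATCA was added after the sequences were seen. From each list, up to 3 called genes per direction and comparison with the largest fold change are named. Genes most like the members were ranked by Pearson r to their mean centred log2 CPM (prior 0.5 read), and 1 gene that this rule names is not reported here. Promoters were read with Python from the mm9 genome. Leaving out both libraries of mouse 4 was added after seeing the data.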

Additional observations from a re-analysis of the deposited data

Results flagged for a closer look

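In groups of 4, a library was singled out where its gap to the nearest other, divided by the range of the group, was above Dixon's critical value for 4 libraries, which chance exceeds in about 1 in 20 groups. This held for 3 of 40 groups. For Fos in engrafted cells after LPS the ratio was 0.861, with mouse 4 at 4249 CPM and the others at 2525 to 2765 CPM. For Ier2 in the same group it was 0.897, with mouse 4 at 3237 CPM and the others at 1161 to 1374 CPM. For Atf3 in host microglia after LPS it was 0.920, with mouse 4 at 491 CPM and the others at 290 to 306 CPM.

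The response to LPS differed between the populations for 2 members, by the test of the difference in edgeR. For Nr4a1 the difference was 2.18 on the log2 scale (engrafted minus host, adjusted p = 0.000251). For Atf3 it was -1.10 (adjusted p = 0.0212).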

How the results depend on the processing

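Nr4a1 and Egr2 between the populations, Fosb and Atf3 after LPS in engrafted cells, Fosb and Nr4a1 after LPS in host microglia and Nr4a1 for the difference between responses kept direction and call under every alternative that tested them, among RLE size factors, library totals, DESeq2, limma-trend, no filter, a minimum of 10 reads in all libraries, 1 fit of all 16 libraries and single libraries left out. Egr2 was not tested after LPS with at least 10 reads in every library, which left 1 member called there. Its other calls between populations after LPS share libraries and rest on at most 10 reads in an engrafted library, so they are no separate support. Atf3 after LPS in host microglia lost the 2-fold limit without host control mouse 8 or host LPS mouse 1, 2 or 3 (lowest size -0.94). By adjusted p alone, 6, 4, 5 and 8 members passed in the comparisons of populations without and with LPS and of LPS in engrafted and host cells. Leaving out 1 library gave 2 to 4 members called after LPS between populations and for LPS in each population, and 1 to 2 for the difference between responses. Without both libraries of mouse 4, 4 were called for LPS in engrafted cells.

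Some values that passed no test changed sign. Junb after LPS in engrafted cells was 0.0104 with RLE factors, 0.0108 with DESeq2 and 0.0244 with no filter. Over single libraries left out, Junb ranged from -0.35 to 0.15 there and from -0.0435 to 0.48 between populations after LPS, Ier2 between populations after LPS from -0.0044 to 0.61, and Egr3 after LPS in host microglia from -0.48 to 0.16. The difference between responses ranged from -0.35 to 0.30 for Fosb, -0.30 to 0.15 for Jun, -0.36 to 0.11 for Egr2 and -0.17 to 0.45 for Ier2. Egr2 was 0.0314 there with limma-trend. Without both libraries of mouse 4, Ier2 was -0.0131 between populations after LPS, and the difference between responses was 0.0776 for Fosb and -0.13 for Ier2. The causes were not tested.

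With the mouse as a replicate block, 2 members were called in each comparison of populations and for the difference between responses, as without it, and no other adjusted p than those given above changed sides. In a fit of all 16 libraries, Fos, Fosb, Jun and Atf3 no longer passed between unchallenged populations (adjusted p = 0.0595, 0.0906, 0.205 and 0.068), nor did Junb (0.075) and Ier2 (0.0543) after LPS in host microglia. Atf3 between populations after LPS passed in that fit (edgeR adjusted p = 0.0451) and with library totals (0.0484). Fos after LPS in engrafted cells passed with library totals (edgeR adjusted p = 0.0195) and with at least 10 reads in every library (0.0246). The Egr1 difference between responses passed in the same 2 settings (edgeR adjusted p = 0.0307 and 0.046). Calls over all genes moved with the filter and the call rule. No filter gave 1454 and 1352 between populations without and with LPS, against 883 and 868. At least 10 reads in every library gave 402, 381, 816, 871 and 251, against 883, 868, 1636, 1484 and 438, and adjusted p alone gave 2198, 1345, 2947 and 3269 in the first 4 comparisons. Egr3, and Egr2 in engrafted cells after LPS, had at most 20 and 10 reads in a library.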

Other observations

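Among kinases and factors upstream of the immediate early genes, 2 of 17 tested were called lower after LPS in engrafted cells (11.3% of all genes), 1 of 18 lower in host microglia (10.4%), 1 of 17 higher in engrafted than in host cells after LPS (6.73%) and 2 of 18 on the higher side for the difference between the responses (2.45%). Of 24 listed, 17 or 18 were tested in each comparison, and medians lay between -0.13 and 0.15 on the log2 scale. After LPS, Rps6ka1 (-1.19, edgeR adjusted p = 0.000275) and Mapk14, the p38 kinase (-1.01, edgeR adjusted p = 0.000349), were called lower in engrafted cells and Creb1 (-1.21, edgeR adjusted p = 2.22e-05) in host microglia. Mkl1, a cofactor of SRF, stood at 87.6 to 187 CPM in engrafted and 44.8 to 74.3 CPM in host cells after LPS (log2 1.30, edgeR adjusted p = 0.000597), and at 64.9 to 95.2 and 65.4 to 88.8 CPM without. Its responses differed by 1.27 (edgeR adjusted p = 0.0094), and those of Map2k1 by 1.14 (edgeR adjusted p = 0.00553).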
